A study of Mus musculus with 7 samples.

Results

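A set of 5 genes of neuronal intermediate filaments (Nefl, Nefm, Nefh, Ina and Prph) and 4 further genes used as markers of the auditory neurons of the spiral ganglion (Uchl1, Ntrk2, Ntrk3 and Gap43) were read in sorted supporting cells of the mouse cochlea. All 9 were found by gene symbol among the 48709 genes of the deposited tables. The 7 bulk RNA-seq libraries came from cochleae taken at postnatal day 1 and kept as organ cultures for 48 h in medium supplemented with EGF and FGF, among others. The groups were DMSO as solvent control (2 libraries), 10 µM GSK-343 (3 libraries) and 200 nM TSA (2 libraries). GSK-343 inhibits EZH2, an enzyme that places a repressive methyl mark on histone H3, and TSA (trichostatin A) inhibits histone deacetylases. After the culture the organs were dissociated with trypsin and GFP-positive cells were collected by flow cytometry. The labels call these cells supporting cells, and they give neither the transgene behind GFP, nor the strain, nor whether replicates came from separate litters or cultures. The p-values below therefore measure the spread between these libraries, which may be technical.

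Neurofilaments are the main intermediate filaments of large axons. They are built from a light (Nefl), a medium (Nefm) and a heavy (Nefh) chain together with alpha-internexin (Ina) or peripherin (Prph). The medium and heavy chains need a partner such as the light chain to assemble. Uchl1 encodes a ubiquitin hydrolase that is abundant in neurons, and Gap43 encodes a growth cone protein. Ntrk2 and Ntrk3 encode the receptors TrkB and TrkC for the neurotrophins BDNF and NT-3, which keep spiral ganglion neurons alive. In the mature ear Prph marks type II neurons, which contact outer hair cells. In a bulk library fewer cells of a type and less RNA per cell cannot be told apart.

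The libraries held 2724381 to 5974230 expected counts. The DMSO libraries had another read layout than the treated ones. RSEM shortened the median transcript to its effective length by 49 bases in each DMSO library, whereas this gap was 208 to 213 bases under treatment. Nuclear protein-coding genes took 62.5% and 63.4% of the DMSO counts and 78.2% to 93.4% of the treated counts, and the mitochondrial rRNA genes took 20.8% to 23.6% in DMSO, 3.47% to 8.60% in GSK-343 and 10.4% and 18.1% in TSA. In every comparison with DMSO the treatment and the library layout cannot be told apart. TSA and GSK-343 libraries shared a layout and are compared first.

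Levels per transcript length (TPM) set Uchl1 apart from the other 8 genes in all 3 groups. Its mean was 210 ± 25.4 TPM in DMSO (SD, n = 2), 3456 ± 416 TPM in GSK-343 (SD, n = 3) and 753 ± 583 TPM in TSA (SD, n = 2). In DMSO the next gene was Ntrk3 at 6.20 ± 4.60 TPM, followed by Nefm at 1.37 ± 1.28 TPM, and the other 6 had means under 1 TPM. In GSK-343, Nefl came next at 5.34 ± 2.81 TPM, followed by Nefm at 2.85 ± 2.80 TPM and Ina at 1.99 ± 2.25 TPM. In TSA the order after Uchl1 was Nefl at 37.7 ± 28.5 TPM, Nefm at 19.3 ± 20.2 TPM and Ntrk3 at 9.57 ± 7.30 TPM. These neighbours below Uchl1 differed by less than the larger of their SDs in GSK-343 and TSA, and Ntrk3 and Nefm in DMSO by slightly more. Prph stood last in DMSO and GSK-343, where it had no count, and Nefh stood last in TSA.

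The promoters of Uchl1, the most abundant of these genes, and of Prph, which had no count in 5 of the 7 libraries, are shown as the bases just before the annotated start. They are RefSeq sequences of build GRCm38.p6, and capitals mark a TATA box (TATAAA) or a GC box (GGGCGG), searched on both strands together with CCAAT.
Uchl1 (chr5:66675871-66676090, plus strand): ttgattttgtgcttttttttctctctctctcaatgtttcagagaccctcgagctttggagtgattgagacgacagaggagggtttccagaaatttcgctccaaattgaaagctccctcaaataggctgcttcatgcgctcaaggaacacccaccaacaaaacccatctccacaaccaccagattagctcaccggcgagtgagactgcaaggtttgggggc
Prph (chr15:99054924-99055173, plus strand): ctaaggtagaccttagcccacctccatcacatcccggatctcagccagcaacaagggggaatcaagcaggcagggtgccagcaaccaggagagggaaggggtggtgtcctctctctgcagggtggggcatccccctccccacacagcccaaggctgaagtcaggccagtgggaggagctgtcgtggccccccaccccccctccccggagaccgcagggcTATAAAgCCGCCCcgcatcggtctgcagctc
The printed Uchl1 run ends at the GENCODE start and holds 220 bases, while motifs and CG dinucleotides were counted over the 250 bases before the RefSeq start. That Uchl1 window held none of the 3 motifs, and the Prph window held 1 TATA box and 1 GC box. Over 32851 mouse promoter windows of the same length, 12.4% held TATAAA, 32.7% held GGGCGG and 33.9% held CCAAT. Both windows held 7 CG dinucleotides, against a median of 6 over all windows. A match is only a run of letters. The RefSeq table also held Ina and Ntrk2, and Ina had 2 GC boxes and Ntrk2 none of the 3 motifs.

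**Figure D1:**
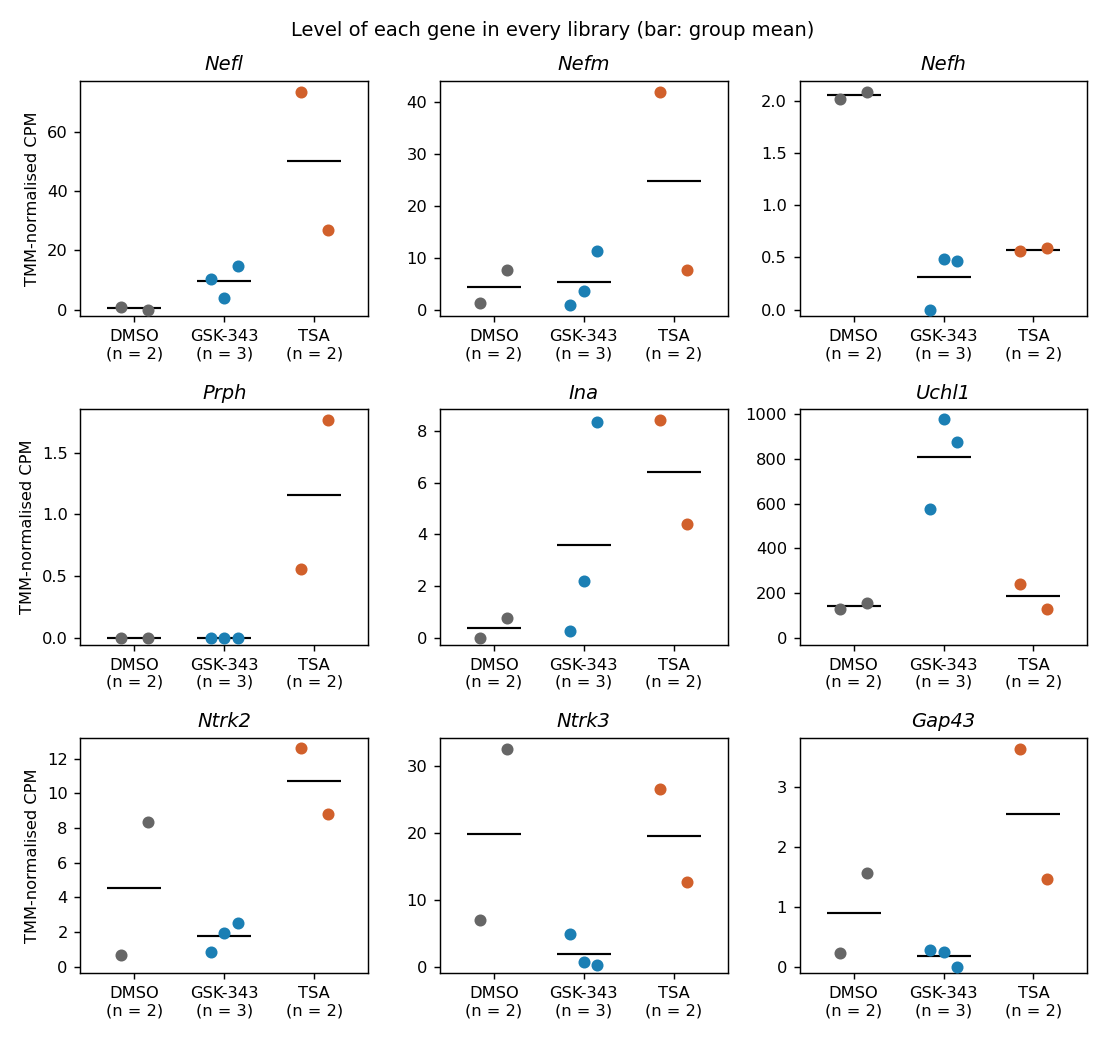
Level of the 9 genes in each library, in TMM-normalised CPM (vertical axes, different scale in each panel), by group (horizontal axes). Points are libraries and bars are group means. Nefl was highest in both TSA libraries, at 73.4 and 26.7 CPM, and Uchl1 in the 3 GSK-343 libraries, at 574 to 977.

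Of the 9 genes, 6 passed the filter on low counts and were tested (Nefl, Nefm, Ina, Uchl1, Ntrk2 and Ntrk3), and Nefh, Prph and Gap43 did not. A gene that passes because it is high in 1 group is likelier to differ, so counts over the 6 tested genes are descriptions. Between TSA and GSK-343, 1 of the 6 was called higher in TSA (Ntrk3) and 1 lower (Uchl1), at an edgeR adjusted p under 0.05, where 9.56% of 14907 genes were called in either direction (4.56% higher and 5% lower). In TSA against DMSO 1 of 6 was called, Nefl, higher, where 28.5% of all genes were called (12.8% higher and 15.7% lower). In GSK-343 against DMSO 3 of 6 were called, Nefl and Uchl1 higher and Ntrk3 lower, where 39% of all genes were called (17.7% higher and 21.3% lower). At an unadjusted p under 0.05 the 3 comparisons held 5, 2 and 3 of the 6 genes, and 27.8%, 40.6% and 48.4% of all genes. The CPM of the groups did not overlap for 3 higher and 1 lower of the 6 in TSA against GSK-343 (23.5% and 22.9% of all genes), for 4 and 0 in TSA against DMSO (33% and 35.6%) and for 2 and 1 in GSK-343 against DMSO (28.6% and 32.1%). The median log2 difference of the 6 genes was 2.30, 1.87 and 1.38 in these 3 comparisons, and that of all tested genes was 0.00, -0.05 and -0.04. These comparisons share libraries and are not independent of each other.

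Nefl, the light chain, rose in both treatments over DMSO, where it was almost absent. It had 4 and 0 counts in the DMSO libraries, 36, 16 and 63 in GSK-343, and 262 and 91.0 in TSA. In CPM, the counts scaled to library size with TMM factors, DMSO held 0.898 and 0, GSK-343 held 10.2, 3.89 and 14.6, and TSA held 73.4 and 26.7. The 3 groups did not overlap on this scale or in TPM. The log2 difference was 6.63 ± 1.07 (SE) for TSA against DMSO (edgeR adjusted p = 0.00145) and 4.25 ± 1.01 for GSK-343 against DMSO (edgeR adjusted p = 0.00588). Both sizes rest on the 4 counts of DMSO replicate 1. Without that library the fitted values were 10.57 and 8.20, with DMSO then at 0 counts and the value set by the prior count. TSA against GSK-343 gave 2.38 ± 0.70 with an edgeR adjusted p of 0.0504, which missed the threshold. Over 21 alternatives that adjusted p ran from 0.00235 to 0.400 and was under 0.05 in 12. Leaving out TSA replicate 1 gave the highest value, with a log2 difference of 1.47.

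Nefm, the medium chain, did not pass the test in any comparison. It had 6 and 29 counts in DMSO, 3, 15 and 49 in GSK-343, and 150 and 26.0 in TSA. In TMM CPM these were 1.35 and 7.56, then 0.850, 3.65 and 11.3, then 42.0 and 7.63. TSA replicate 1 stood far above every other library, and TSA replicate 2 lay beside the higher DMSO library. The log2 difference was 2.21 ± 0.99 for TSA against GSK-343 (edgeR adjusted p = 0.167), 2.48 ± 1.15 for TSA against DMSO (edgeR adjusted p = 0.125) and 0.27 ± 1.04 for GSK-343 against DMSO (edgeR adjusted p = 0.860). Without TSA replicate 1 the first 2 of these were 0.52 and 0.84.

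The proportion of the 2 chains varied between libraries. Nefl made up 40% of the Nefl and Nefm counts in DMSO replicate 1 (4 of 10; exact 95% interval 12.2% to 73.8%) and 0% in DMSO replicate 2 (0 of 29; up to 11.9%). In GSK-343 its share was 92.3% (36 of 39; 79.1% to 98.4%), 51.6% (16 of 31; 33.1% to 69.8%) and 56.3% (63 of 112; 46.6% to 65.6%). In TSA its share was 63.6% (262 of 412; 58.7% to 68.2%) and 77.8% (91 of 117; 69.2% to 84.9%). These Clopper-Pearson intervals cover counting error only, and not how reads of exons shared by the 2 genes were assigned. All 5 treated shares lay above the interval of DMSO replicate 2, and 3 of them lay within that of DMSO replicate 1. The groups were not tested for this share. GSK-343 replicate 1 lay above the intervals of the other GSK-343 libraries, and the 2 TSA intervals did not overlap.

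The genes lie together on chromosome 14 of mm10. Nefl runs from 68083863 to 68089095 on the plus strand and lies inside the span of Nefm, from 68082590 to 68124846 on the minus strand. The 2 genes share 1108 exonic bases, 32.8% of the Nefl exons, all through the 3680-base transcript of Nefm that reaches across Nefl. The usual 3334-base Nefm transcript took all Nefm signal in 5 libraries, and the long one took 19.5% in DMSO replicate 2 and 5.2% in TSA replicate 2. Whether the counting used strand is not given in the sources used here, so reads of the shared exons could be assigned to either gene. The expected counts of TSA replicate 2 were not whole, with 90.97 for Nefl and 26.03 for Nefm.

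Ina, alpha-internexin, was near the detection limit in DMSO and did not pass the test. It had 0 and 3 counts in DMSO, 1, 9 and 36 in GSK-343, and 30 and 15 in TSA, or 0 and 0.782, 0.283, 2.19 and 8.32, and 8.40 and 4.40 TMM CPM. GSK-343 replicate 3 reached the level of the TSA libraries, and GSK-343 replicate 1 lay between the DMSO libraries. The log2 difference was 3.98 ± 1.55 for TSA against DMSO (edgeR adjusted p = 0.0722), 3.17 ± 1.48 for GSK-343 against DMSO (edgeR adjusted p = 0.106) and 0.81 ± 1.15 for TSA against GSK-343 (edgeR adjusted p = 0.690). Ina shares 456 exonic bases with Nt5c2 on the other strand.

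Nefh and Prph stayed at a few counts. Nefh, the heavy chain that joins neurofilaments late in axon maturation, had 9 and 8 counts in DMSO, 0, 2 and 2 in GSK-343, and 2 and 2 in TSA. It was the 1 filament gene of the 5 with its highest level in DMSO, at 0.58 and 0.53 TPM, and no other library exceeded 0.37 TPM. Prph had no count in the 5 DMSO and GSK-343 libraries and 2 and 6 counts in TSA, 0.90 and 2.35 TPM. A count of 0 allows up to 3 counts, which is 0.502 to 0.883 CPM without TMM factors in those 5 libraries, and the TSA libraries had 0.734 and 2.02 on that scale. No fold is given.

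**Figure D2:**
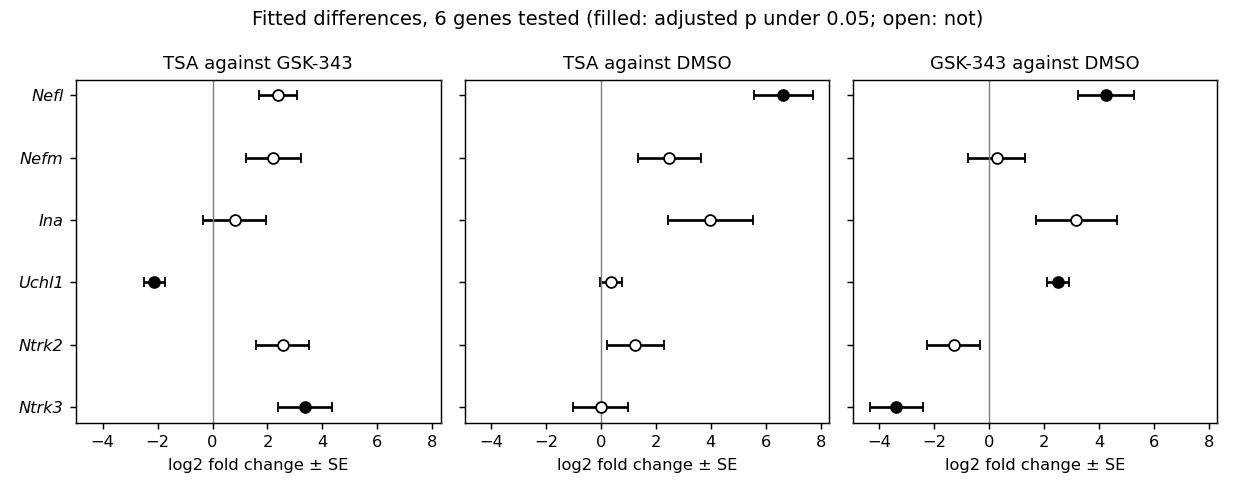
Fitted log2 difference with its standard error (horizontal axes) for the 6 tested genes in the 3 comparisons, from the edgeR quasi-likelihood fit over all 7 libraries. Filled points have an adjusted p under 0.05. Nefl stood at 6.63 in TSA against DMSO, and Uchl1 was lower in TSA than in GSK-343 by a log2 value of -2.12.

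Uchl1 was highest in GSK-343. It had 585 and 603 counts in DMSO, 2026, 4013 and 3781 in GSK-343, and 867 and 437 in TSA. In TMM CPM these were 131 and 157, then 574, 977 and 874, then 243 and 128. The 3 GSK-343 libraries lay above all others, and the TSA libraries lay around those of DMSO. The log2 difference was 2.49 ± 0.40 for GSK-343 against DMSO (edgeR adjusted p = 7.2e-04) and -2.12 ± 0.39 for TSA against GSK-343 (edgeR adjusted p = 0.0114). TSA against DMSO gave 0.36 ± 0.40 (edgeR adjusted p = 0.522). The fall against GSK-343 missed the threshold without TSA replicate 2, at -1.75 with an edgeR adjusted p of 0.0750.

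The length assigned to Uchl1 transcripts differed between libraries. The annotation holds a coding transcript of 1177 bases with 223 codons and 3 retained-intron transcripts of 980, 491 and 228 bases. The abundance-weighted length was 819 and 743 bases in DMSO, 555, 643 and 647 in GSK-343, and 726 and 994 in TSA. The effective length was 351 to 443 bases in GSK-343 and 694 and 770 in DMSO. TPM divides by that length, and it gave 192 and 228 in DMSO, 3191, 3935 and 3241 in GSK-343, and 1165 and 340 in TSA. On log2(TPM + 1) the rise of GSK-343 over DMSO was 4.03 (limma adjusted p = 0.00166), against 2.49 on counts. TSA against DMSO was 1.58 on that scale and did not pass (limma adjusted p = 0.0639). This scale differs from the main one in library scaling as well as in length, and with total count scaling alone these differences were 2.96 and 1.10. With GC and length trends removed, a setting chosen after seeing the data, GSK-343 against DMSO was 1.87 (edgeR adjusted p = 9.7e-04) and TSA against GSK-343 was -1.36 (edgeR adjusted p = 0.0213). Uchl1 shares 295 exonic bases with its antisense gene Uchl1os.

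**Figure D3:**
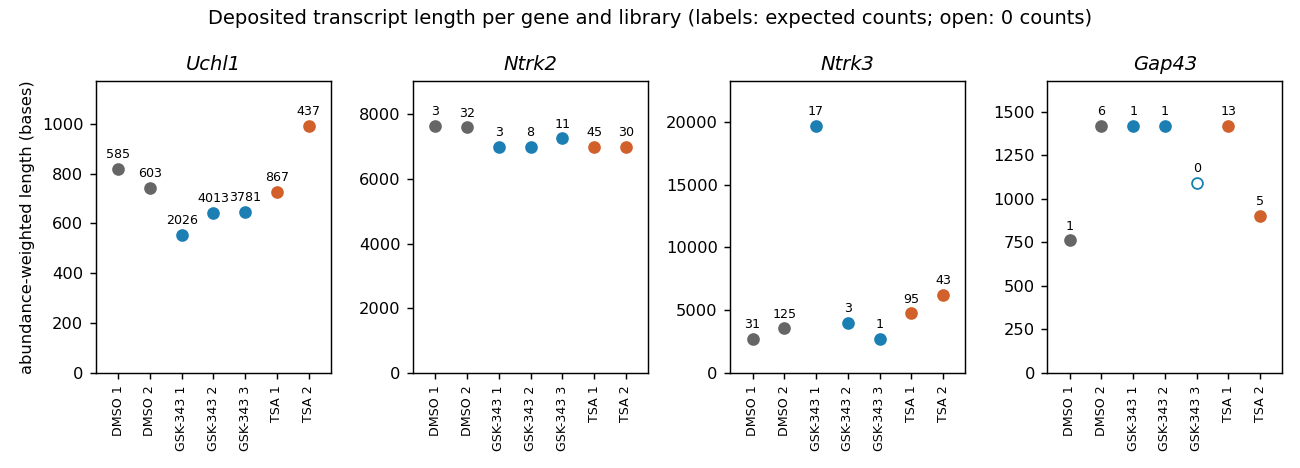
Abundance-weighted transcript length in bases (vertical axes) of Uchl1, Ntrk2, Ntrk3 and Gap43 in each library (horizontal axes), as deposited. Numbers above the points are expected counts, and the open point has none. The Ntrk3 value of 19703 bases in GSK-343 replicate 1 comes from 17 counts.

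Of the 2 neurotrophin receptor genes, Ntrk3 was lower in GSK-343 than in DMSO and Ntrk2 was not called. Ntrk3, which encodes TrkC, had 31 and 125 counts in DMSO, 17, 3 and 1 in GSK-343, and 95 and 43 in TSA. In TMM CPM these were 6.96 and 32.6, then 4.82, 0.730 and 0.231, then 26.6 and 12.6. All GSK-343 libraries lay below all others, and TSA overlapped DMSO. Ntrk3 fell in GSK-343 against DMSO, with a log2 difference of -3.38 (SE 0.98, edgeR adjusted p = 0.0165). Without DMSO replicate 2, the library with the 125 counts, the difference was -1.85 with an edgeR adjusted p of 0.208. TSA against GSK-343 gave 3.37 ± 0.98 with an edgeR adjusted p of 0.0494, just past the threshold. That call was lost in 9 of 21 alternatives (adjusted p 0.0585 to 0.126), among them those without either TSA library and those without the second or the third library of GSK-343. TSA against DMSO was -0.01 ± 0.99 (edgeR adjusted p = 0.997), an estimate that changed sign in 13 of 21 alternatives.

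Ntrk2, which encodes TrkB, had 3 and 32 counts in DMSO, 3, 8 and 11 in GSK-343, and 45 and 30 in TSA. In TMM CPM these were 0.674 and 8.34, then 0.850, 1.95 and 2.54, then 12.6 and 8.80. Both TSA libraries lay above all others, by a narrow margin over DMSO replicate 2. None of the comparisons passed. TSA against GSK-343 was 2.55 ± 0.96 (edgeR adjusted p = 0.107), TSA against DMSO 1.25 ± 1.04 (edgeR adjusted p = 0.392) and GSK-343 against DMSO -1.30 ± 0.97 (edgeR adjusted p = 0.309).

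Both receptors exist as full-length forms with a kinase domain and as truncated forms without it, and glia are known for truncated TrkB. The deposited tables list 2 transcripts of Ntrk2. The weighted length was 7002 bases in both TSA libraries and in GSK-343 replicates 1 and 2, the value of the shorter transcript alone, and it was 7258 in GSK-343 replicate 3 and 7657 and 7601 in DMSO. The GENCODE release used here, in which that transcript is 6846 bases long, gives the shorter transcript 476 codons and the longer one 821, and the shorter one ends before the kinase exons. For Ntrk3, the 17 counts of GSK-343 replicate 1 were placed on the 19703-base transcript of 825 codons, the 3 counts of GSK-343 replicate 2 on a 3977-base transcript of 612 codons and the 1 count of GSK-343 replicate 3 on a 2678-base transcript of 839 codons. The weighted length was 4723 and 6185 bases in TSA and 2718 and 3532 in DMSO. These are estimates from few reads, and the Ntrk3 TPM of 0.48, 0.34 and 0.15 in GSK-343 varied less than its counts.

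Gap43 had 1 and 6 counts in DMSO, 1, 1 and 0 in GSK-343, and 13 and 5 in TSA. TSA was higher than GSK-343 in every library, with 18 against 2 counts in all, a ratio of CPM of 15.4 (95% counting interval 3.69 to 137). Against DMSO the ratio was 3.05 (1.22 to 8.65), and TSA replicate 2 lay below DMSO replicate 2 in CPM. These intervals do not cover the spread between libraries, and Gap43 was not tested in the main fit. With no low-count filter its edgeR adjusted p was 0.301 for TSA against GSK-343.

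Ntf3, which encodes NT-3, the ligand of TrkC, lay at 285 to 303 TPM in GSK-343, 53.5 and 79.2 in DMSO and 144 and 196 in TSA. Ntf3 was lower in TSA than in GSK-343, with a log2 difference of -1.12 ± 0.31 (edgeR adjusted p = 0.0398), and higher in GSK-343 than in DMSO, by 1.2 ± 0.31 (edgeR adjusted p = 0.00870). TSA against DMSO gave 0.08 ± 0.33 (edgeR adjusted p = 0.878). In TMM CPM these 2 groups overlapped, unlike in TPM, with 93.0 and 83.0 in TSA and 95.2 and 71.2 in DMSO. Bdnf rose in TSA against DMSO by 2.98 ± 0.87 (edgeR adjusted p = 0.0240), from 1.45 and 0.72 TPM to 29.0 and 10.2 TPM. Ngfr, the shared low-affinity receptor gene, was lower on counts than in DMSO in both treatments, with log2 differences of -1.58 ± 0.54 in TSA (edgeR adjusted p = 0.0434) and -1.84 ± 0.47 in GSK-343 (edgeR adjusted p = 0.00922). In TPM its TSA libraries overlapped DMSO, with 38.9 and 13.4 in TSA and 38.1 and 29.3 in DMSO.

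Of the 37 genes of the wider neurotrophin pathway, 34 were tested, and 1 rose and 4 fell in TSA against GSK-343, 5 rose and 7 fell in TSA against DMSO, and 6 rose and 9 fell in GSK-343 against DMSO. These are near the 9.56%, 28.5% and 39% of all genes called in the 3 comparisons. Kidins220, a scaffold that binds Trk receptors, was higher in TSA than in GSK-343 by 1.5 ± 0.31 (edgeR adjusted p = 0.0163). Its TMM CPM was 115 and 169 in TSA, 44.8 to 59.8 in GSK-343, and 192 and 182 in DMSO. Sorcs2, a proneurotrophin receptor, Maged1, a partner of Ngfr, and Hras were lower in the same comparison, with log2 differences of -1.64, -1.45 and -1.99 (edgeR adjusted p = 0.0218, 0.0242 and 0.0330). In TMM CPM, DMSO held 96.1 and 57.4 for Sorcs2, 294 and 289 for Maged1, and 12.6 and 9.91 for Hras. The GSK-343 libraries held 169 to 175, 500 to 524 and 24.9 to 46.5. Those of TSA held 70.3 and 39.6, 243 and 131, and 9.80 and 7.92. The list medians were 0.09, -0.38 and -0.45 in the 3 comparisons. These counts moved with single libraries: TSA against GSK-343 gave 0 and 0 with replicate 2 of TSA left out and 0 and 1 with replicate 2 of GSK-343 left out, TSA against DMSO gave 2 and 4 without DMSO replicate 1, and GSK-343 against DMSO gave 4 and 4 without it.

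Of 20 genes that carry and turn over neurofilaments 19 were tested, with 1 higher and 1 lower in TSA against GSK-343, 3 and 3 in TSA against DMSO, and 3 and 5 in GSK-343 against DMSO, near the same shares of all genes. The kinesin heavy chain gene Kif5c was higher in TSA than in GSK-343 by 1.79 ± 0.29 (edgeR adjusted p = 0.00857). It had 171 and 182 TMM CPM in TSA, 45.6 to 54.7 in GSK-343, and 88.3 and 80.3 in DMSO. The dynein intermediate chain gene Dync1i1 was lower in the same comparison, with a log2 difference of -2.21 (SE 0.32, edgeR adjusted p = 0.00527). Its TMM CPM was 45.4 and 41.4 in TSA, 186 to 209 in GSK-343, and 80.4 and 75.1 in DMSO. Of 15 other intermediate filament genes 10 were tested. Nes, the nestin gene of neural progenitors, rose in TSA over GSK-343 by 3.38 ± 0.95 (edgeR adjusted p = 0.0445), with 11.8 and 13.8 TMM CPM in TSA, 1.70, 1.95 and 0 in GSK-343, and 7.41 and 13.0 in DMSO. This was the 1 call of that list in the comparison, and it was lost when either TSA library, or replicate 2 or 3 of GSK-343, was left out. In GSK-343 against DMSO 3 of the 10 rose and 3 fell, beside 17.7% and 21.3% of all genes. Those that fell were Sync, with no count in GSK-343, Nes (log2 difference -3.06, edgeR adjusted p = 0.0230) and the lamin gene Lmnb1 (-1.99, edgeR adjusted p = 0.0272), and Vim, the vimentin gene, rose by 1.03 ± 0.35 (edgeR adjusted p = 0.0343). Without DMSO replicate 1 none of the tested genes rose in that comparison, nor without DMSO replicate 2 or GSK-343 replicate 3.

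Among 25 axon growth and injury genes, 21 were tested, with 2 higher and 2 lower in TSA against GSK-343, 4 and 5 in TSA against DMSO, and 3 and 5 in GSK-343 against DMSO, beside 9.56%, 28.5% and 39% of all genes. Stmn2, a microtubule regulator of growing axons, had 108 and 98.8 TMM CPM in TSA, 1.98, 3.16 and 1.85 in GSK-343, and 13.9 and 13.3 in DMSO. Its log2 difference was 5.45 ± 0.44 in TSA against GSK-343 (edgeR adjusted p = 3.1e-04), 2.92 ± 0.45 in TSA against DMSO (edgeR adjusted p = 0.00107) and -2.53 ± 0.43 in GSK-343 against DMSO (edgeR adjusted p = 0.00102). Crmp1, a mediator of growth cone signals, had 0 and 0.261 TMM CPM in DMSO, 15.1 to 31.4 in GSK-343 and 74.5 and 33.4 in TSA. The 2 genes called lower in TSA than in GSK-343 were Marcksl1, an actin-regulating protein gene (log2 difference -2.18, edgeR adjusted p = 0.0146), and Dpysl4 (-1.44, edgeR adjusted p = 0.0461). Marcksl1 had 101 and 142 TMM CPM in TSA, 280 to 725 in GSK-343, and 109 and 132 in DMSO. Dpysl4 had 57.7 and 26.1 in TSA, 79.5 to 132 in GSK-343, and 65.6 and 61.3 in DMSO. Rtn1 fell in TSA against DMSO (-2.22, edgeR adjusted p = 0.00774).

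Of 45 other genes listed as spiral ganglion neuron markers, 39 were tested. In TSA, 12 rose and 2 fell against GSK-343, and 14 rose and 4 fell against DMSO. GSK-343 against DMSO gave 6 higher and 10 lower. The shares of all genes called higher and lower were 4.56% and 5% in TSA against GSK-343. They were 12.8% and 15.7% in TSA against DMSO, and 17.7% and 21.3% in GSK-343 against DMSO. The list medians were 1.78, 1.76 and -0.25, beside 0.00, -0.05 and -0.04 for all genes, and the last of these turned to 0.22 when libraries were scaled by total count alone and to 0.13 on log2(TPM + 1). Without TSA replicate 2 the first count fell to 4 higher and 0 lower, and without TSA replicate 1 or GSK-343 replicate 2 it was 8 and 2 or 7 and 1. The count against DMSO was 7 higher without either DMSO library and 9 without TSA replicate 1. For GSK-343 against DMSO it was 3 and 8 or 4 and 7 without DMSO replicate 1 or 2, and 4 and 7 without GSK-343 replicate 3. Map2 and Mapt, which encode neuronal microtubule proteins, rose in TSA over GSK-343 by 2.83 ± 0.44 and 3.73 ± 0.61 (edgeR adjusted p = 0.00709 and 0.00830). Lypd1, a marker of a type I neuron subclass, rose by 4.70 ± 0.82 and Snap25, of synaptic vesicle release, by 2.89 ± 0.52 (edgeR adjusted p = 0.0100 and 0.0107). Against DMSO, Snap25, Calb2 and Calb1 rose in TSA by 4.88, 5.78 and 6.77 (edgeR adjusted p = 6.8e-04, 9.6e-04 and 9.9e-04). Prox1, also on the supporting cell list, fell there (-2.91, edgeR adjusted p = 0.00164). In GSK-343 against DMSO, Calb2 and Calb1 rose by 4.42 and 4.43 (edgeR adjusted p = 0.00158 and 0.00287). Ttn and Scn9a fell there (-4.47 and -7.68, edgeR adjusted p = 4.4e-04 and 0.00198), Scn9a with no count in GSK-343. The list is not private to neurons: 20 of its 45 genes reached 1 TPM in both DMSO libraries, among them Gata3, which cochlear supporting cells express. Calb1 had 528 and 122 TPM in TSA replicates 1 and 2, Calb2 had 310 and 61.1, and Snap25 had 135 and 97.8. Pou4f3, on the hair cell list, had 518 and 71.1 TPM in the same libraries. Which cells these levels came from was not tested.

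Markers of other cell types gave the following values beside these. The neuronal tubulin gene Tubb3 lay at 0.72 to 6.08 TPM in all libraries, with 4.45 and 0.72 in DMSO, 1.34, 6.08 and 4.12 in GSK-343, and 2.53 and 4.79 in TSA, and its log2 difference in TSA against GSK-343 was -0.09 ± 1.09 (edgeR adjusted p = 0.984). The number of the 45 listed neuron genes at 1 TPM or more was 26 and 26 in DMSO, 23, 29 and 28 in GSK-343, and 40 and 39 in TSA. The share of all genes at that level was not counted. Genes with any count numbered 25166 and 28754 in DMSO, 15916 to 17278 in GSK-343, and 19251 and 18346 in TSA. On log2(TPM + 1) the median difference of all genes was 0.24 in TSA against GSK-343 and 0.67 in TSA against DMSO. The summed level of the 45 neuron genes was 1638 and 1229 TPM in DMSO, 1905, 1153 and 1303 in GSK-343, and 2746 and 1470 in TSA.

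Of 22 Schwann and satellite glia genes, 17 were tested, and 0 rose and 5 fell in TSA against GSK-343. At an unadjusted edgeR p under 0.05 there were 6, without TSA replicate 2 none was called, and by limma on log2(TPM + 1) none was called in either direction. Their summed level was 791 and 782 TPM in DMSO, 893, 661 and 708 in GSK-343, and 446 and 305 in TSA. Fabp7, which is also on the supporting cell list, made up 447 and 419 TPM of the DMSO sums. The mean log2(TPM + 1) over the list was 2.44 and 2.51 in DMSO, 2.82 to 3.28 in GSK-343, and 3.07 and 2.599 in TSA. Against DMSO, 2 rose and 4 fell in TSA, with a median of 0.10, and 2 rose and 3 fell in GSK-343, with a median of 0.71. The shares of all genes called higher and lower were 4.56% and 5% in TSA against GSK-343. They were 12.8% and 15.7% in TSA against DMSO, and 17.7% and 21.3% in GSK-343 against DMSO. Mbp, a myelin gene, rose against DMSO in both treatments, by 2.82 ± 0.59 in TSA and 3.23 ± 0.58 in GSK-343 (edgeR adjusted p = 0.00556 and 0.00134). Sox10, a glial gene that cochlear supporting cells also express, fell in TSA, with log2 differences of -2.03 against GSK-343 and -3.83 against DMSO (edgeR adjusted p = 0.0373 and 0.00131). It also fell in GSK-343 against DMSO, with a log2 difference of -1.79 (edgeR adjusted p = 0.0112).

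Hair cell genes varied strongly between the TSA libraries. Of 26, 25 were tested, and 9 rose and 0 fell against DMSO in each treatment, with medians of 2.19 in TSA and 1.67 in GSK-343. At an unadjusted edgeR p under 0.05 there were 13 and 11, and limma on log2(TPM + 1) called 7 higher and 0 lower in each. TSA against GSK-343 gave 0 in either direction, 3 at an unadjusted edgeR p under 0.05, and 0 by limma. The shares of all genes called higher and lower by edgeR were 4.56% and 5% in TSA against GSK-343. They were 12.8% and 15.7% in TSA against DMSO, and 17.7% and 21.3% in GSK-343 against DMSO. Without TSA replicate 1 the TSA count was 2 higher and 1 lower, without TSA replicate 2 it was 16 and 0, and without either DMSO library 5 and 0. The GSK-343 count was 6 and 0 without DMSO replicate 1 or GSK-343 replicate 3. Their summed level was 190 and 136 TPM in DMSO, 946, 512 and 1168 in GSK-343, and 2601 and 576 in TSA. Myo7a, a hair cell myosin, had 121 TPM in TSA replicate 1 and 15.9 in TSA replicate 2. In TPM, 8 of the 9 genes described here were higher in TSA replicate 1 than in TSA replicate 2, with Prph the exception. Nefh was among the 8 on 2 counts in each library, and in TMM CPM it was lower in replicate 1 (0.560 against 0.587). The share of all genes higher in TSA replicate 1 was not counted. Supporting cell genes summed to 9600 to 12249 TPM in DMSO, 34857 to 44306 in GSK-343 and 14478 and 19583 in TSA, and all 28 were detected in every library. The S100a1 gene alone gave 15057 to 27765 TPM of the GSK-343 sums. In GSK-343 against DMSO 5 of the 28 rose and 7 fell, with a median of -0.08, and in TSA against DMSO 0 rose and 11 fell, with 17 at an unadjusted edgeR p under 0.05. By limma on log2(TPM + 1) these counts were 10 and 1, and 5 and 5. The edgeR shares of all genes given above for the hair cell genes stand beside the edgeR counts of this list too. Of these 28, 1 rose and 10 fell in TSA against GSK-343, and leaving out replicate 2 lowered the second count to 4 for TSA and to 6 for GSK-343. Macrophage, endothelial and red blood cell lists summed to at most 32.3 TPM in any library, and a mesenchyme list to 84.0 to 275 TPM. The part of neurons, glia or hair cells in the levels of the 9 genes was not tested.

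**Figure D4:**
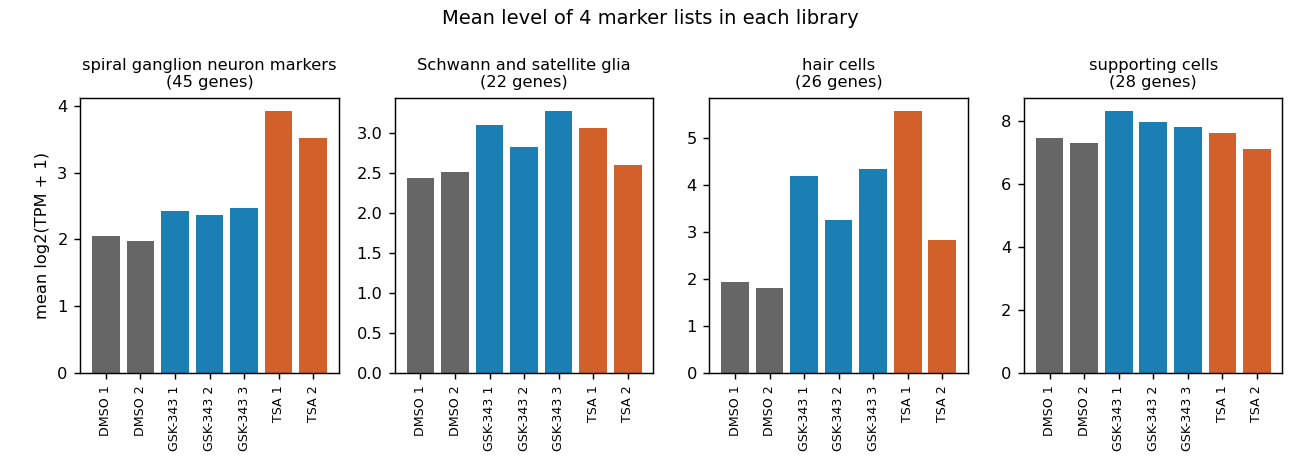
Mean of log2(TPM + 1) over the genes of 4 marker lists (vertical axes) in each library (horizontal axes). Bars are single libraries. The neuron list was highest in both TSA libraries, at 3.93 and 3.53, and the hair cell list ranged from 2.82 to 5.57 between the 2 TSA libraries.

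The genes most like each tested gene were those with the smallest mean absolute difference of centred log2 CPM over the 7 libraries, among 9395 genes of sufficient level. For Nefl these were Mlf1 (0.43), Gfi1 (0.44) and Rims3 (0.49), where the median over all 9395 was 1.98. Gfi1 encodes a transcription factor of hair cells. For Uchl1 they were Relt (0.11), Ckb (0.15) and Tapbp (0.18), with a median of 1.12. For Ntrk2 the nearest was Adamts17 (0.38), for Ina Fbxo36 (0.40), for Ntrk3 Pex5l (0.55) and for Nefm Bdh2 (0.60). Among the members themselves Nefm and Ntrk2 were the closest pair (0.68), and Nefl and Nefm differed by 1.42. These are descriptions over 7 libraries in 3 groups, of which the DMSO libraries also differ in layout.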

How the data were processed

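The 7 libraries were made with the QIAseq FX Single Cell RNA Library Kit, per the labels. The authors deposited 1 gene table per library with expected counts and TPM, and the submitters' processing notes name STAR, RSEM, DESeq2 and mm10 without versions or annotation release. Gene identifiers without version were matched to symbols for 48349 of 48709 genes. Members and lists were chosen with earlier results of these data known. Expected counts were rounded and tested with edgeR 4.0.16 (TMM, filterByExpr, quasi-likelihood F test at default settings, all 7 libraries, 14907 genes, Benjamini-Hochberg adjustment, threshold 0.05), with 4 residual degrees of freedom. TPM, per length and as the authors deposited it, served for levels and for limma 3.58.1 on log2(TPM + 1). DESeq2 1.42.0 was an alternative. The edgeR fit was also run on simulated counts with known changes and no difference in layout, and the limma and DESeq2 fits were not. All 9 members are described. From each other list up to 4 tested genes with the smallest adjusted p in a comparison could be named, with a set of defining genes, some of which are not reported here. Replicates were not duplicates: their counts differed by 15.8 to 47.2 times the chi-square expected from sampling. GC and length correction, the robust prior, the bias-adjusted dispersion and the last 2 together were added after seeing the data, the last 3 because the default fit left Nefl beside the threshold. The default fit was kept. Group sizes of 2 and 3 limit the precision.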

Additional observations from a re-analysis of the deposited data

How the results depend on the processing

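Uchl1 and Nefl against DMSO in GSK-343 and Nefl against DMSO in TSA kept their direction in all 21 alternatives and their call in 21, 20 and 21 of them. The call of Uchl1 in TSA against GSK-343 held in 18 of 21, that of Ntrk3 in 12 of 21, and Nefl, not called there, passed in 12 of 21. Its edgeR adjusted p was 0.0362 with the robust prior, 0.0173 with the bias-adjusted dispersion and 0.0150 with both, and that of Ntrk3 was 0.0374, 0.0222 and 0.0193. The members called in TSA against GSK-343 (2) numbered 4 with no low-count filter or with only the 2 groups fitted, 0 by limma on log2(TPM + 0.1) and on log2(TPM + 1) without a filter, and 1 with GC and length trends removed. In TSA against DMSO (1) they numbered 2 with total count scaling, only the 2 groups, the replicate block, the bias-adjusted dispersion or that with the robust prior, 3 with no filter by edgeR or limma and 4 by limma on log2(TPM + 1). In GSK-343 against DMSO (3) limma without a filter gave 1. Leaving out 1 library gave 0 to 3, 1 to 2 and 2 to 4. Genes called numbered 1425 in TSA against GSK-343, and 619 by limma on log2(TPM + 0.1), 5 by limma without a filter, 841 with the replicate block and 159 to 1878 with 1 library left out. In TSA against DMSO they numbered 4252, and 7530, 6876 and 7617 by the 3 limma fits and 2058 to 5124 with 1 library left out. In GSK-343 against DMSO they numbered 5809, and 4668 to 6405. Total count scaling moved the median of all genes to 0.20, 0.65 and 0.42 and the share of calls that were higher from 47.7%, 45.0% and 45.4% to 71.5%, 74.5% and 63.1%. By limma on log2(TPM + 1) these shares were 82.8%, 66.9% and 56.6%, and removing GC and length trends gave 37.1% in TSA against GSK-343. The sign of some uncalled estimates turned. Ntrk3 in TSA against DMSO went from -0.01 to 2.2e-04 with DESeq2 size factors, 0.73 with total counts, 0.0786 with no filter, 0.0346 with only the 2 groups, 0.0103 by DESeq2, 0.00765 with the bias-adjusted dispersion, alone or with the robust prior, 0.52, 0.60 and 0.52 by limma, and -0.70 to 1.504 with 1 library left out. Nefm in GSK-343 against DMSO was -0.91 with the replicate block and -0.93 to 1.98 with 1 library left out, Ntrk2 there 0.0885 by limma on log2(TPM + 0.1) and -2.15 to 1.40, and Uchl1 in TSA against DMSO -0.12 to 0.79. The cause was not tested. Same-numbered libraries did not deviate together (correlations -0.09 to 0.04), so the replicate numbers were not taken as pairs. Nefm, Ina and Ntrk2 have no value under the filter of 50 counts in 2 libraries. In the smaller DMSO library 3 counts are 0.585 CPM and in the TSA libraries 1.01 and 1.10, so levels of Nefh, Prph and Gap43 are at the limit of the depth.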
